A study of Mus musculus with 8 samples.

Results

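The ephrin, semaphorin, netrin and slit families and their receptors were followed in ribosome-bound RNA of the injured kidney collecting duct. Members were taken by gene symbol: ephrins (Efna, Efnb), Eph receptors (Epha, Ephb), semaphorins of classes 3 to 7, plexins, neuropilins, netrins, UNC5 receptors, slits and Robo receptors. The symbols matched 68 of the 24421 genes counted, and 60 of them had 10 or more counts in at least 4 of the 8 libraries. All mice carried HoxB7-Cre and Gt(ROSA)26Sor-mCherry-Rpl10a, so that Cre turned on an mCherry-tagged ribosomal protein and tagged ribosomes could be pulled down with their RNA (RiboTRAP). In 4 mice the renal artery was clamped for 30 min and the kidneys were taken 9 h after ischemia and reperfusion injury (IRI). The other 4 mice had sham surgery. The study's methods give male mice of 10 to 16 weeks.

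HoxB7-Cre is active in the mesonephric duct and what grows from it, so the tag marks both principal and intercalated cells, as well as the epithelium of the ureter, and cannot separate them. These families are best known for steering axons and vessels. Ephrins are anchored in the membrane and meet Eph receptor tyrosine kinases on the neighbouring cell, and both partners can signal. Semaphorins act through plexins, alone or with neuropilins as co-receptors. Netrins act through DCC, neogenin and UNC5 receptors, and slits through Robo receptors. In the kidney, Slit2 and Robo2 are known for placing the ureteric bud, Sema3a and Ntn1 for their appearance in urine in acute kidney injury, and ephrin-B2 with Ephb4 for vessels.

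After IRI 13 of the 20 semaphorins rose (12 of 19 without the scarce Sema4f), 65.0% beside 25.1% of all genes tested. Sema6b (11.8-fold), Sema7a (10.7-fold) and Sema6d (7.65-fold) led among those well counted in both groups. The A ephrins exchanged places: Efna5 rose 4.84-fold while Efna4 fell 4.12-fold and Efna3 4.73-fold. Among the receptors Epha2 rose 5.69-fold, Plxna2 5.23-fold, Robo4 4.83-fold and Nrp2 3.77-fold. Ntn4, the most abundant netrin in sham, fell 4.34-fold, and Slit2 fell 2.35-fold while Ntn1 rose 2.18-fold.

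Of the 59 members that entered edgeR's quasi-likelihood test, 24 were higher after IRI and 12 lower at an adjusted p (Benjamini-Hochberg, over 14606 genes) under 0.01, and 23 did not pass. Efna2, Efnb3, Ntn3 and Sema4f had 10 or more counts only in libraries of the group where they were higher, so that a difference was built in; without them, a count added after seeing the data, 23 were higher and 10 lower of 56 tested. Of all genes tested, 25.1% were called higher and 24.6% lower, so the members' share of higher calls (40.7%) lay above the background and that of lower calls (20.3%) below it. At a change of at least 2-fold 27 members (45.8%) were called, 19 higher and 8 lower, against 24.5% of all genes in either direction. The groups of mice did not overlap in 25 of the 59 members higher after IRI and in 12 lower (20.3%). Of all genes the shares were 28.8% and 29.8%, so that of the lower members lay below the background. The median log2 fold change was 0.25 over the members and -0.01 over all genes, and the median size of change, regardless of sign, 0.78 against 0.55. Scaling by total counts in place of TMM moved the median of all genes by about -0.20 and gave 2784 higher and 4912 lower calls, where the TMM scaling gave 3667 and 3595. With upper quartile factors they were 3092 and 4393. Values below are CPM (counts scaled to library size, here with TMM factors), in the order of sham mice 1 to 4 and IRI mice 1 to 4. Fold changes are on the log2 scale with a standard error (SE) from limma-voom.

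**Figure D1:**
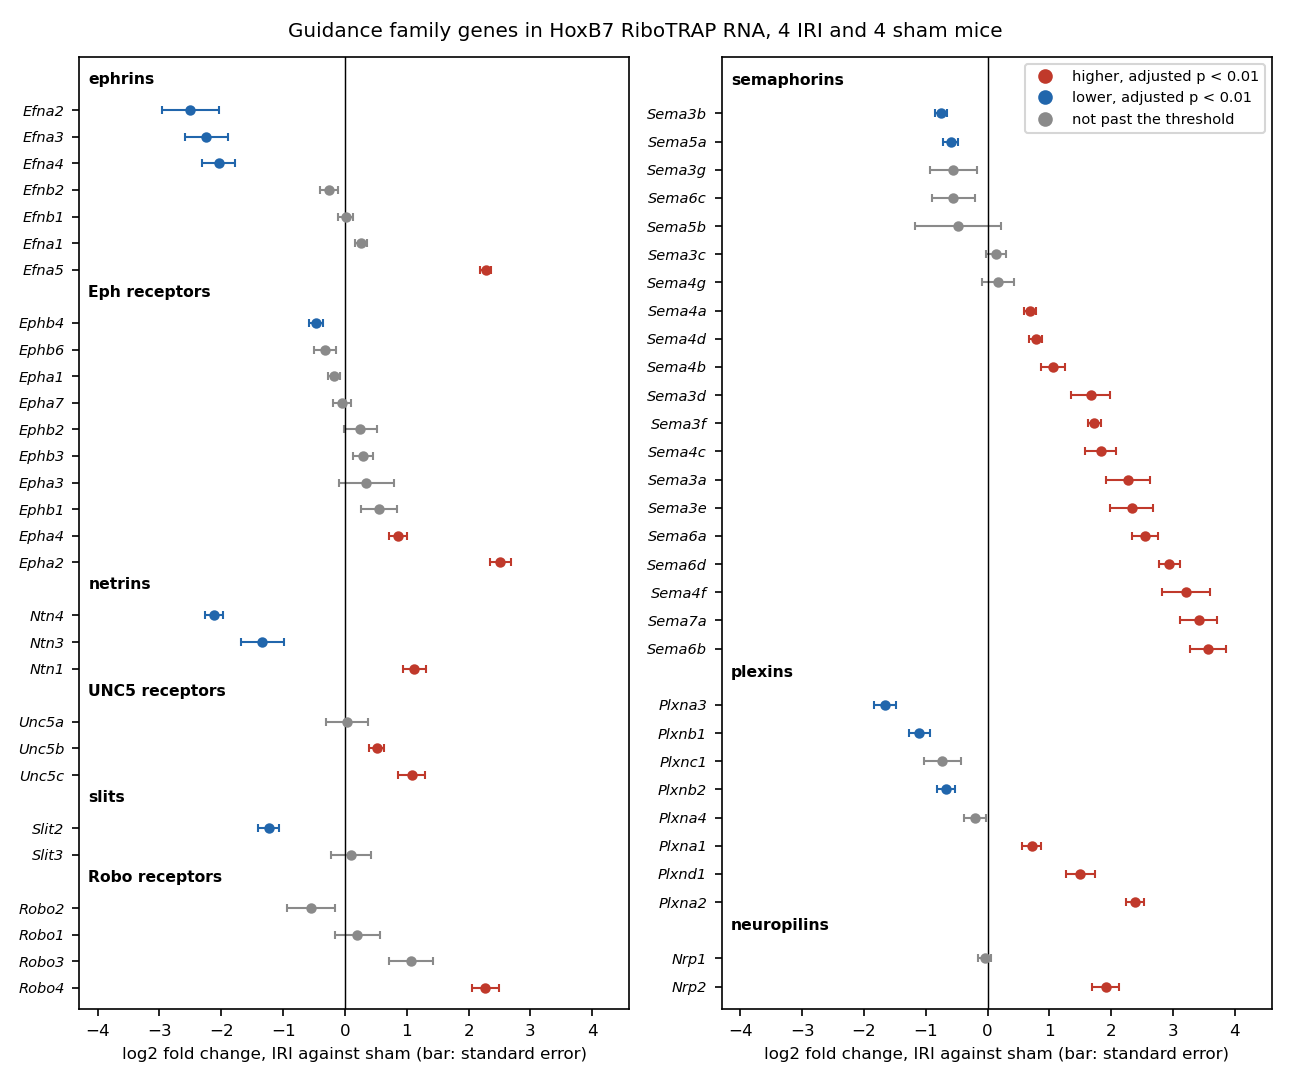
Log2 fold change of the 59 members tested, IRI (n = 4 mice) against sham (n = 4), by family; points are edgeR estimates and bars the limma-voom standard error. Red points are the 24 members called higher, blue points the 12 called lower and grey points the 23 that did not pass an adjusted p of 0.01; 13 of the 20 semaphorins are red.

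The gene totals of the libraries were 13518005 to 27496808 counts after IRI and 25210299 to 29285812 in sham. The labelled collecting duct was checked on its markers. The 9 principal cell markers summed to 10782 to 14355 CPM in sham and 1837 to 3704 CPM after IRI, and 9 of 9 fell. The 9 intercalated cell markers summed to 2986 to 3761 CPM in sham and 1008 to 1621 CPM after IRI, and 9 of 9 fell as well. In such a pulldown fewer cells of a type and less RNA per cell cannot be told apart. RNA of cells outside the lineage was present in every library. The 12 proximal tubule markers summed to 7838 to 10427 CPM in sham and 10673 to 21508 CPM after IRI, with 8 of 12 higher. The 14 endothelial markers summed to 243 to 348 CPM in sham and 406 to 824 CPM after IRI, with 8 of 14 higher. Neutrophil markers rose in 9 of 9 tested, from sums of 3.75 to 7.31 CPM to 68.2 to 194 CPM. Of 12 fibroblast and pericyte markers 3 rose, 25.0%, which is near the share of all genes. Their sums were 246 to 395 CPM in sham and 326 to 1735 CPM after IRI, the highest in IRI 2. Beside these marker counts, 25.1% of all genes tested were called higher and 24.6% lower. No marker of these lists was at 0 in all libraries.

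The bases just upstream of 4 members are shown because Epha2, Sema6b and Sema4c, which rose, hold the letters of a cAMP response element, a HIF core or an AP-1 motif near a start, and Ntn4, which fell, holds none of these 3. They come from RefSeq on build GRCm38.p6, 250 bases before an annotated start, written 5′ to 3′ on the gene's own strand, and capitals mark matches to these 3 motifs on either strand, with distances counted from the first base of the match. In the GENCODE annotation of GRCm38, the Epha2 window lies before the gene, the windows of Sema6b and Ntn4 lie inside the gene but in no exon, and that of Sema4c overlaps exons of the noncoding D430040D24Rik on the other strand.
Epha2, chr4:141300971-141301220, plus strand, capitals a cAMP response element 33 bases before the start: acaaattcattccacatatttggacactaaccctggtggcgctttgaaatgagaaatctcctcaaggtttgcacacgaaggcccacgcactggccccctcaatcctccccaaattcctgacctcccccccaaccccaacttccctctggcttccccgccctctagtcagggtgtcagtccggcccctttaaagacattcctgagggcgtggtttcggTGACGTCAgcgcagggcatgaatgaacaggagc
Sema6b, chr17:56133853-56134102, minus strand, capitals a HIF core 57 and an AP-1 motif 48 bases before the start: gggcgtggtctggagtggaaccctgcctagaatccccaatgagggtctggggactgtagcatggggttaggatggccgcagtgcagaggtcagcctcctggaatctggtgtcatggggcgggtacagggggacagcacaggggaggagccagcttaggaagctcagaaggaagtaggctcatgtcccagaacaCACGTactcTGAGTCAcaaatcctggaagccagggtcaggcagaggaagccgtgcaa
Sema4c, chr1:36558382-36558631, minus strand, capitals an AP-1 motif 22 bases before the start: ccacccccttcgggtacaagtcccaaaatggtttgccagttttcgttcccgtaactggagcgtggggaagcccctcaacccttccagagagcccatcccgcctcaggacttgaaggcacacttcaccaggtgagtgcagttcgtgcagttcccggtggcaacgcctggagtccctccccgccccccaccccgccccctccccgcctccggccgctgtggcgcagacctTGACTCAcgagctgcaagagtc
Ntn4, chr10:93640799-93641048, plus strand, no capitals: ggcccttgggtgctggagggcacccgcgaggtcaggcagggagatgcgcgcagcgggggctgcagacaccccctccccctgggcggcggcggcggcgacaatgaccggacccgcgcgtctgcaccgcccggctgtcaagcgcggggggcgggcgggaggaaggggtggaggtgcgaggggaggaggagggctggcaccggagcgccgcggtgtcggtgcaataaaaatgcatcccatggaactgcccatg

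A promoter window was found for 53 of the 60 members, of which 20 were higher, 11 lower and 22 not called; Sema6b and Sema4c have further RefSeq starts whose windows hold none of these 3 motifs. The AP-1 motif (TGANTCA) was in Sema4c, Sema4d and Sema6b, 3 of the 20 higher members, in 0 of 11 lower and in 0 of 22 others, against 7.82% of all genes. The cAMP response element (TGACGTCA) was in Epha2 alone among the 53, against 1.77% of all genes. The HIF core (ACGTG) was in 5 of the 20 higher members (Epha4, Sema4b, Sema4d, Sema6b and Sema6d), 0 of 11 lower and 5 of 22 others, against 18.5% of all genes. In Sema6d, Sema4b and Robo2, which was not called, 2 HIF cores on opposite strands overlap in 1 palindrome. A TEAD motif (GGAATG) was in 3 of 20 higher members, among them Epha2, in 2 of 11 lower and in 3 of 22 others, against 14.4% of all genes. The GC box (GGGCGG) was in 15 of 20 higher, 10 of 11 lower and 15 of 22 other members, against 35.4% of all genes. NF-kB motifs were in 2 of 20 higher, 1 of 11 lower and 2 of 22 other members, against 8.23% of all genes. SRF motifs were in 1 of 20 higher, 0 of 11 lower and 1 of 22 others, against 1.62%. These 7 motifs were searched on both strands, and a gene with several windows counted once. In this paragraph all genes are the 27025 with a window, not only those tested for expression. The median GC content of all windows was 52.4%, and the shares were not matched for GC content or expression. A match is a run of letters, and binding was not measured.

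Ephrins of the A class sit in the membrane by a lipid anchor and bind mainly EphA receptors. Efna5 was at 39.3, 36.6, 38.1 and 36.0 CPM in sham and 176, 165, 172 and 213 CPM after IRI. Every IRI mouse lay far above every sham mouse (log2 fold change 2.28, SE 0.09, edgeR adjusted p = 5.67e-07), the smallest adjusted p of all members. Efna4 ran the other way, from 38.1, 60.2, 54.5 and 43.2 CPM in sham to 11.9, 7.86, 8.41 and 19.0 CPM after IRI. The groups did not overlap, with IRI 4 the highest of the injured mice (log2 fold change -2.04, SE 0.26, edgeR adjusted p = 1.95e-04). Efna3 fell from 5.64, 7.36, 11.4 and 8.05 CPM to 1.41, 1.79, 1.12 and 2.51 CPM (log2 fold change -2.24, SE 0.34, edgeR adjusted p = 1.65e-04). Efna2 was scarce, with 18 to 30 counts per sham library and 1 to 5 per IRI library. It reached the count limit through the sham libraries alone, so its difference is given as a description. Its values of 0.672, 1.06, 0.886 and 0.850 CPM in sham and 0.0392, 0.234, 0.125 and 0.237 CPM after IRI did not overlap either (log2 fold change -2.50, SE 0.47, edgeR adjusted p = 8.86e-04).

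Efna1, the A ephrin first found as an endothelial gene induced by TNF, was at 44.9, 37.7, 42.1 and 34.7 CPM in sham and 50.7, 45.6, 45.1 and 49.6 CPM after IRI. All IRI mice were above all sham mice, but the difference was small and did not pass the threshold (log2 fold change 0.26, SE 0.10, edgeR adjusted p = 0.0344). Efna1, Efna3 and Efna4 are neighbours on chromosome 3 in GRCm38, Efna1 at 89271733 to 89281142, Efna3 at 89313899 to 89322965 and Efna4 at 89333390 to 89338028. The 2 that fell are those next to each other, 10425 bases apart, while Efna1 lies 32757 bases from Efna3. Efna5 is at 62604184 to 62881317 on chromosome 17 and Efna2 on chromosome 10. Of the exon bases of Efna3 and Efna4, 14.1% and 10.5% are shared with a transcript of the other strand, and reads there cannot be told apart without knowing whether counting used the strand.

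Set per kilobase of exon, the A ephrins changed in makeup. Efna5 made up 14.3% ± 1.56 of their summed CPM per kb in sham and 56.8% ± 1.39 after IRI (SD, n = 4). Efna4 went from 46.5% to 9.05%. The share of Efna1 was 33.5% ± 4.83 in sham and 33.1% ± 2.70 after IRI. So Efna4 led the A ephrins in sham and Efna5 after IRI, in the mean over mice.

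Ephrins of the B class span the membrane. Efnb1 was at 64.2 to 73.9 CPM in sham and 58.7 to 86.2 CPM after IRI (log2 fold change 0.02, edgeR adjusted p = 0.918). Efnb2, the ligand of Ephb4, was at 116, 110.4, 104 and 98.6 CPM in sham and 83.8, 78.4, 74.3 and 122 CPM after IRI. IRI 4 was the highest of all 8 libraries and the other 3 injured mice lay below every sham mouse (log2 fold change -0.26, SE 0.15, edgeR adjusted p = 0.164). Without IRI 4 Efnb2 passed the threshold (log2 fold change -0.44, edgeR adjusted p = 0.00169). Efnb3 had 10 to 21 counts per sham library and 1 to 4 per IRI library and did not pass the expression filter of the test. It reached the count limit through the 4 sham libraries alone, and so is described by its counts only.

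Epha2, a receptor tyrosine kinase of epithelia, was at 55.8, 60.4, 65.7 and 37.7 CPM in sham and 289, 307, 289 and 365 CPM after IRI. The injured mice were close to each other and far from the sham mice (log2 fold change 2.51, SE 0.17, edgeR adjusted p = 4.18e-06). Epha2 lies at 141301240 to 141329384 on chromosome 4. Epha4, which binds both A and B ephrins, rose from 14.4, 13.2, 13.5 and 13.7 CPM to 26.8, 19.5, 21.6 and 31.8 CPM (log2 fold change 0.87, SE 0.15, edgeR adjusted p = 7.37e-04). Per kilobase, Epha2 made up 19.7% ± 3.24 of all Eph receptor RNA in sham and 61.8% ± 1.07 after IRI (SD, n = 4).

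Ephb4, the receptor of ephrin-B2 known from veins, led the Eph receptors in sham, with 42.7% of their summed CPM per kb, and had 17.0% after IRI. Its values were 113, 109, 136 and 112 CPM in sham and 75.3, 95.8, 75.2 and 94.9 CPM after IRI. The groups did not overlap, and the call was narrow (log2 fold change -0.46, SE 0.11, edgeR adjusted p = 0.00594). It was lost without IRI 1, IRI 3 or Sham 3 (adjusted p = 0.0166, 0.0170 and 0.0128), with the animal numbers as a covariate (0.0284; low numbers, under 100, for 3 IRI mice and 1 sham mouse, high ones for the others, so that number and injury partly coincide, with no source saying what the numbers mark) and with a replicate block (0.0245).

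The other 7 Eph receptors tested did not pass. They were Epha1, Epha3, Epha7, Ephb1, Ephb2, Ephb3 and the kinase-dead Ephb6, with log2 fold changes from -0.33 (Ephb6) to 0.56 (Ephb1) and adjusted p of 0.122 to 0.808. Ephb2, for example, was at 25.5, 21.4, 46.3 and 34.9 CPM in sham and 34.7, 40.6, 25.9 and 50.9 CPM after IRI. Its groups overlapped widely. Epha1, 28.8 to 36.4 CPM in sham and 24.9 to 29.6 CPM after IRI, passed only with scaling by total counts (log2 fold change -0.37, edgeR adjusted p = 0.0091). Epha5, Epha6, Epha8 and Epha10 had at most 10 counts in any library.

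**Figure D2:**
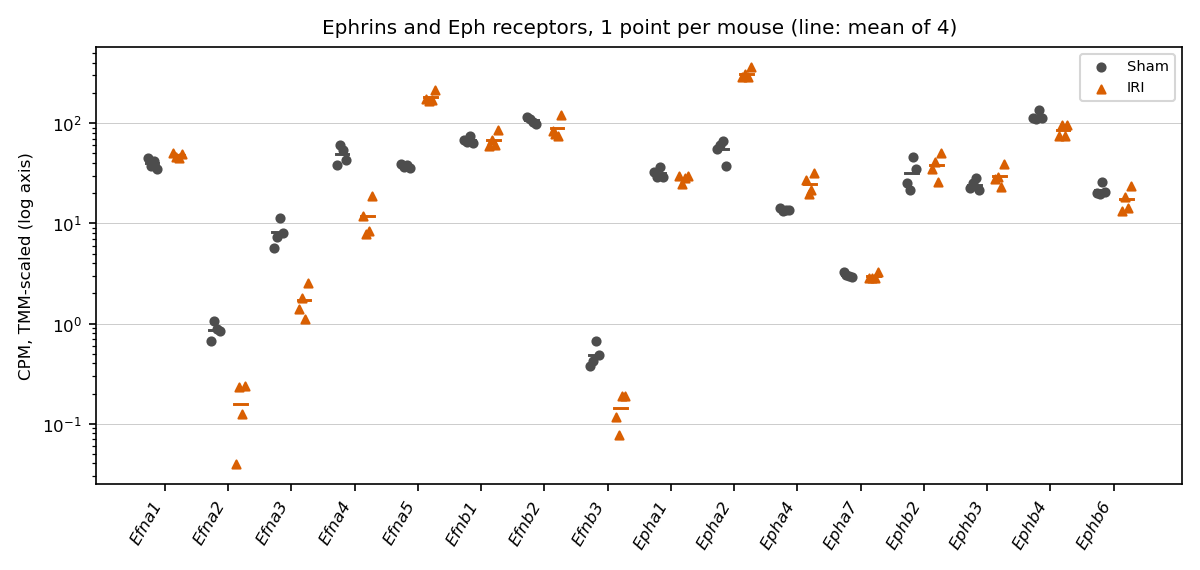
TMM-scaled CPM on a log axis of 16 ephrins and Eph receptors, 1 point per mouse (circles sham, triangles IRI, n = 4 each; lines are group means). Efna5 and Epha2 move up and Efna2, Efna3 and Efna4 down with no overlap between groups, while Efnb1, Epha7 and Ephb2 overlap.

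Class 3 semaphorins are secreted and mostly need a neuropilin to reach their plexin. Of the 7 measured, 4 rose by at least 2-fold (Sema3a, Sema3d, Sema3e and Sema3f), Sema3b fell, and Sema3c and Sema3g did not pass. At 2-fold or more 57.1% of the class was called, beside 24.5% of all genes in either direction. Sema3f, a ligand of Nrp2, rose from 51.6, 43.5, 45.2 and 47.9 CPM to 157, 139, 143 and 184 CPM (log2 fold change 1.73, SE 0.10, edgeR adjusted p = 2.27e-06). The 4 injured mice were all at or above 139 CPM and the sham mice at or below 51.6 CPM. Sema3b, its neighbour on chromosome 9 at a distance of 72271 bases, fell from 82.1, 76.5, 73.4 and 63.0 CPM to 43.4, 41.0, 40.8 and 49.9 CPM (log2 fold change -0.75, SE 0.10, edgeR adjusted p = 1.68e-04). These neighbours moved in opposite directions, each without overlap between the groups.

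Sema3e, which binds Plxnd1 without a neuropilin, was at 6.16, 4.46, 1.68 and 5.91 CPM in sham and 18.8, 26.2, 18.7 and 27.5 CPM after IRI. Sham 3 was the lowest, and the groups did not overlap (log2 fold change 2.33, SE 0.35, edgeR adjusted p = 3.71e-04). Sema3a, a ligand of Nrp1, was low, at 0.933, 0.389, 0.412 and 0.924 CPM in sham and 2.78, 3.11, 4.55 and 2.37 CPM after IRI (log2 fold change 2.26, SE 0.36, edgeR adjusted p = 5.09e-04). Sema3d rose from 2.82 to 4.14 CPM in sham to 6.23 to 15.3 CPM after IRI (log2 fold change 1.67, SE 0.31, edgeR adjusted p = 5.00e-04), with IRI 1 the lowest of the injured mice. Sema3c was as high as 99.2 to 136 CPM in sham and 100.4 to 151 CPM after IRI, with groups that overlapped (log2 fold change 0.14, edgeR adjusted p = 0.465). Sema3g was at 42.3, 29.4, 15.1 and 43.3 CPM in sham and 13.9, 30.9, 26.0 and 18.1 CPM after IRI and did not pass. Its sham values had the same order as the summed markers of podocytes, cells known to make Sema3g, which were at 378, 249, 159 and 391 CPM in sham 1 to 4. That order was not particular to Sema3g. Among the members, Robo2, Robo4, Nrp2, Sema3d, Sema6d and Unc5c had it in sham too, and the share of all genes with it was not counted. It was not particular to podocytes either. The sums for endothelium (314, 291, 243 and 348 CPM), fibroblasts and pericytes, and macrophages had it too. The part of any of these cells in the values was not tested.

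The membrane-bound semaphorins of classes 4 to 7 rose in 9 of 13 cases, Sema4f included, and fell in 1. These shares, 69.2% and 7.69%, stand beside 25.1% and 24.6% of all genes. Sema6b, a class 6 semaphorin and ligand of A plexins, had the largest change of all members, from 2.46, 1.70, 3.10 and 3.10 CPM in sham to 22.8, 35.5, 38.4 and 26.5 CPM after IRI. The lowest injured mouse was far above the highest sham mouse (log2 fold change 3.56, SE 0.29, edgeR adjusted p = 3.84e-06). Sema6d rose from 14.5, 12.4, 11.3 and 14.9 CPM to 75.5, 118, 117 and 96.2 CPM (log2 fold change 2.94, SE 0.17, edgeR adjusted p = 1.66e-06). Sema6a rose from 16.8, 10.4, 11.0 and 15.9 CPM to 59.3, 99.6, 85.1 and 72.7 CPM (log2 fold change 2.55, SE 0.21, edgeR adjusted p = 1.04e-05). In all 3 of these IRI 1 was the lowest of the injured mice. The fourth of the class, Sema6c, was at 1.38 to 2.36 CPM in sham and 0.627 to 2.18 CPM after IRI and did not pass (log2 fold change -0.55, edgeR adjusted p = 0.205).

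Sema7a, which carries a lipid anchor and binds Plxnc1 and beta 1 integrins, was at 3.62, 3.86, 5.38 and 5.76 CPM in sham and 31.6, 64.4, 53.0 and 50.6 CPM after IRI. The groups were wide apart, with IRI 1 again the lowest injured mouse (log2 fold change 3.42, SE 0.30, edgeR adjusted p = 5.24e-06). Sema6b lies at 56123085 to 56140343 on chromosome 17 and Sema7a at 57940112 to 57962865 on chromosome 9.

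Class 4 semaphorins, several of which bind B plexins, rose in 5 of 6 cases, Sema4f included (83.3%, beside 25.1% of all genes). Sema4b was the most abundant semaphorin, at 149, 159.7, 198 and 126 CPM in sham and 311, 293, 256 and 454 CPM after IRI. The groups did not overlap (log2 fold change 1.06, SE 0.19, edgeR adjusted p = 0.00121), and with a replicate block it narrowly missed the threshold (adjusted p = 0.0107). Sema4c, a ligand of Plxnb2, rose from 9.14, 5.94, 11.0 and 9.27 CPM to 28.4, 38.1, 38.7 and 21.0 CPM (log2 fold change 1.83, SE 0.25, edgeR adjusted p = 1.46e-04), and 7.27% of its exon bases overlap a transcript of the other strand. Sema4d, the ligand of Plxnb1, rose from 69.5 to 91.3 CPM in sham to 118 to 144 CPM after IRI (log2 fold change 0.78, SE 0.10, edgeR adjusted p = 1.51e-04). Sema4a rose by a like amount (log2 fold change 0.69, SE 0.10, edgeR adjusted p = 2.13e-04). Sema4f was rare, with 2 to 6 counts per sham library and 11 to 40 per IRI library. It reached the count limit through the IRI libraries alone, so a difference was built into its selection and it adds no support to the count of higher semaphorins. Its values were 0.149, 0.106, 0.190 and 0.0739 CPM in sham and 1.57, 0.856, 0.934 and 1.56 CPM after IRI (log2 fold change 3.20, SE 0.39, edgeR adjusted p = 8.00e-05). Sema4g, 14.3 to 25.9 CPM in sham and 15.5 to 32.6 CPM after IRI, did not pass.

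The class 5 semaphorins carry thrombospondin repeats. Sema5a fell from 139, 151, 154 and 130.4 CPM to 78.4, 111, 87.4 and 103 CPM (log2 fold change -0.60, SE 0.12, edgeR adjusted p = 0.00159), without overlap. Sema5b, at 0.522, 0.283, 2.66 and 1.77 CPM in sham and 0.569 to 1.17 CPM after IRI, did not pass, and the sign of its change turned without Sham 3 (log2 fold change from -0.48 to 0.13).

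Of the 8 plexins tested 3 rose and 3 fell, 37.5% each, beside 25.1% and 24.6% of all genes. Plxna2, a receptor of class 6 semaphorins, was at 61.9, 41.2, 54.2 and 52.0 CPM in sham and 217, 302, 307 and 268 CPM after IRI. No mouse of either group came near the other (log2 fold change 2.39, SE 0.15, edgeR adjusted p = 2.98e-06). Plxnd1, the receptor of Sema3e known from endothelium, rose from 38.4, 27.5, 45.2 and 52.1 CPM to 74.3, 151, 121 and 117 CPM (log2 fold change 1.50, SE 0.24, edgeR adjusted p = 4.94e-04). Plxna1 rose from 202, 187, 224 and 186 CPM to 263, 329, 277 and 441 CPM (log2 fold change 0.71, SE 0.15, edgeR adjusted p = 0.00371). The call of Plxna1 was lost without Sham 1, Sham 2 or Sham 4 (adjusted p = 0.0114, 0.0129 and 0.0135), with scaling by total counts (0.0173) and with a replicate block (0.0171), and 10.7% of its exon bases overlap another gene.

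Plxna3, at 14.9, 15.6, 15.5 and 15.4 CPM, varied little among the sham mice and fell to 3.52, 6.23, 3.67 and 6.07 CPM after IRI (log2 fold change -1.66, SE 0.18, edgeR adjusted p = 9.03e-05). Both B plexins tested fell. Plxnb1 went from 260.1, 204, 274 and 249 CPM to 111, 123, 84.0 and 142 CPM, without overlap (log2 fold change -1.10, SE 0.16, edgeR adjusted p = 2.75e-04). Plxnb2 was the most abundant member per kilobase in both groups, at 165 CPM per kb in sham and 104 CPM per kb after IRI. Its values were 1233, 1308, 1416 and 1137 CPM in sham and 829.7, 689, 681 and 1003 CPM after IRI (log2 fold change -0.67, SE 0.14, edgeR adjusted p = 0.00268). With a replicate block it missed the threshold (adjusted p = 0.0154). Plxnc1, the receptor of Sema7a, was at 3.84 to 8.45 CPM in sham and 2.31 to 4.22 CPM after IRI (log2 fold change -0.73, SE 0.30, edgeR adjusted p = 0.0460), and with Plxna4 (-0.21) it did not pass. Plxnb3 had at most 5 counts in any library.

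Of the neuropilins, co-receptors of class 3 semaphorins, Nrp2 rose from 18.9, 17.2, 15.9 and 22.0 CPM to 42.6, 81.7, 77.5 and 76.8 CPM (log2 fold change 1.91, SE 0.22, edgeR adjusted p = 4.55e-05). IRI 1 stood apart from the other injured mice and was still above all sham mice. Nrp1 was at 105, 113, 91.2 and 102 CPM in sham and 88.2, 116, 89.1 and 103 CPM after IRI, with overlapping groups (log2 fold change -0.05, SE 0.11, edgeR adjusted p = 0.705). The share of Nrp2 in the summed neuropilin CPM per kb went from 13.0% ± 1.65 in sham to 36.3% ± 5.60 after IRI (SD, n = 4).

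**Figure D3:**
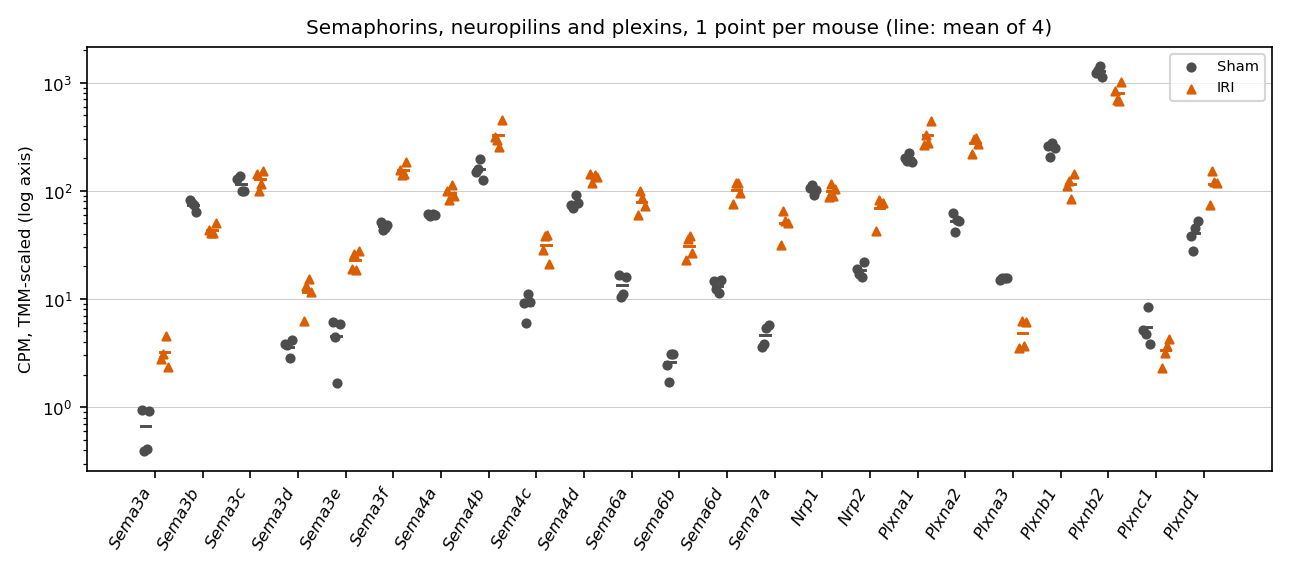
TMM-scaled CPM on a log axis of 23 semaphorins, neuropilins and plexins, 1 point per mouse (circles sham, triangles IRI, n = 4 each; lines are group means). Sema6b, Sema6d, Sema7a, Plxna2 and Nrp2 lie higher in every injured mouse, Plxna3 and Plxnb1 lower, and Nrp1 and Sema3c overlap.

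Set side by side as known ligand and receptor pairs, the members moved in several combinations. Sema3f and its receptor Nrp2 both rose, as did Sema3e and Plxnd1. Sema3a rose while its receptor Nrp1 did not pass. The class 6 semaphorins Sema6a, Sema6b and Sema6d rose. Of the A plexins, Plxna1 and Plxna2 rose, Plxna3 fell and Plxna4 did not pass. Sema4d and Sema4c rose while their receptors Plxnb1 and Plxnb2 fell. Sema7a rose while Plxnc1 did not pass. Efna5 and Epha2 both rose and the remaining A ephrins fell or did not pass. Counts over ligands and receptors were 15 higher and 8 lower of 32 ligands tested, and 9 higher and 4 lower of 27 receptors. As shares these were 46.9% and 25.0% of the ligands and 33.3% and 14.8% of the receptors, beside 25.1% and 24.6% of all genes. The lower ligands include Efna2 and Ntn3 and the higher ones Sema4f, all at the count limit through 1 group alone. A difference was thus built into them. With them included, the ligands' share of lower calls was near the background.

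Netrins are secreted relatives of laminin. Ntn4, which binds laminin in basement membranes, was at 168, 237, 193 and 234 CPM in sham and 47.0, 44.5, 40.1 and 59.8 CPM after IRI. Every injured mouse was far below every sham mouse (log2 fold change -2.12, SE 0.15, edgeR adjusted p = 5.53e-06). Ntn1, the netrin that binds DCC and UNC5 receptors, rose from 40.0, 28.9, 33.3 and 40.4 CPM to 88.3, 71.5, 97.2 and 53.4 CPM (log2 fold change 1.12, SE 0.19, edgeR adjusted p = 6.49e-04). Per kilobase, Ntn4 was 90.3% ± 2.38 of netrin RNA in sham and 51.0% ± 10.3 after IRI, and Ntn1 9.43% ± 2.29 and 48.7% ± 10.3 (SD, n = 4). The share of Ntn4 varied more among the injured mice than among the sham mice. Ntn3 was at 0.672 to 1.08 CPM in sham and 0.190 to 0.545 CPM after IRI (log2 fold change -1.34, SE 0.35, edgeR adjusted p = 0.00773), and it reached the count limit through the sham libraries alone. That call was lost without any 1 of 7 of the 8 libraries, all but IRI 2 (adjusted p = 0.0107 to 0.0234), with every gene kept that had a count (0.0105) and with a replicate block (0.0276). Ntn5 had at most 9 counts in any library.

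Of the UNC5 receptors, which answer netrins, Unc5c rose from 7.31, 7.18, 4.94 and 10.3 CPM to 12.5, 17.9, 16.6 and 15.9 CPM (log2 fold change 1.08, SE 0.21, edgeR adjusted p = 0.00184). Unc5b, the family's most abundant member, was at 26.6, 26.2, 29.0 and 20.5 CPM in sham and 36.1, 35.7, 31.8 and 42.1 CPM after IRI, without overlap (log2 fold change 0.51, SE 0.13, edgeR adjusted p = 0.00587). Its call was lost without IRI 1, IRI 2 or IRI 4 (adjusted p = 0.0135, 0.0120 and 0.0151) and without Sham 1, Sham 2 or Sham 4 (0.0161, 0.0156 and 0.0134). It was also lost with upper quartile factors (0.0181), total counts (0.0473), the animal numbers as a covariate (0.0105) and a replicate block (0.0323). Unc5a did not pass (log2 fold change 0.03, edgeR adjusted p = 0.940), and Unc5d had at most 3 counts in any library.

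Slit2, a secreted repellent, was at 123, 93.5, 164 and 109 CPM in sham and 57.2, 47.6, 45.0 and 58.3 CPM after IRI. The groups did not overlap (log2 fold change -1.23, SE 0.17, edgeR adjusted p = 2.16e-04). Slit3 was at 8.21 to 16.9 CPM in sham and 7.60 to 22.7 CPM after IRI and did not pass. Slit1 fell below the count limit, with 9, 0, 72 and 89 counts in the sham libraries and 2 to 6 in the IRI libraries.

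Robo4, the Robo receptor of endothelium, rose from 7.35, 7.15, 5.98 and 9.20 CPM to 26.1, 46.8, 40.6 and 30.3 CPM (log2 fold change 2.27, SE 0.22, edgeR adjusted p = 1.86e-05). All injured mice were above all sham mice. Robo4 made up 34.2% ± 8.53 of Robo RNA per kilobase in sham and 68.5% ± 3.72 after IRI (SD, n = 4). Robo1 had values of 23.2, 15.4, 52.9 and 34.7 CPM in sham and 33.7, 53.5, 28.5 and 29.9 CPM after IRI, which overlapped (log2 fold change 0.20, edgeR adjusted p = 0.641). Robo2 was at 5.98 to 16.03 CPM in sham and 5.17 to 12.1 CPM after IRI, also with overlap (log2 fold change -0.54, edgeR adjusted p = 0.198). Robo3 lies 554 bases from Robo4 on chromosome 9 and was at 0.672 to 1.75 CPM in sham and 1.65 to 3.66 CPM after IRI (log2 fold change 1.07, SE 0.36, edgeR adjusted p = 0.0210). It passed without IRI 1 (adjusted p = 0.0090) and in DESeq2 (0.00597).

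**Figure D4:**
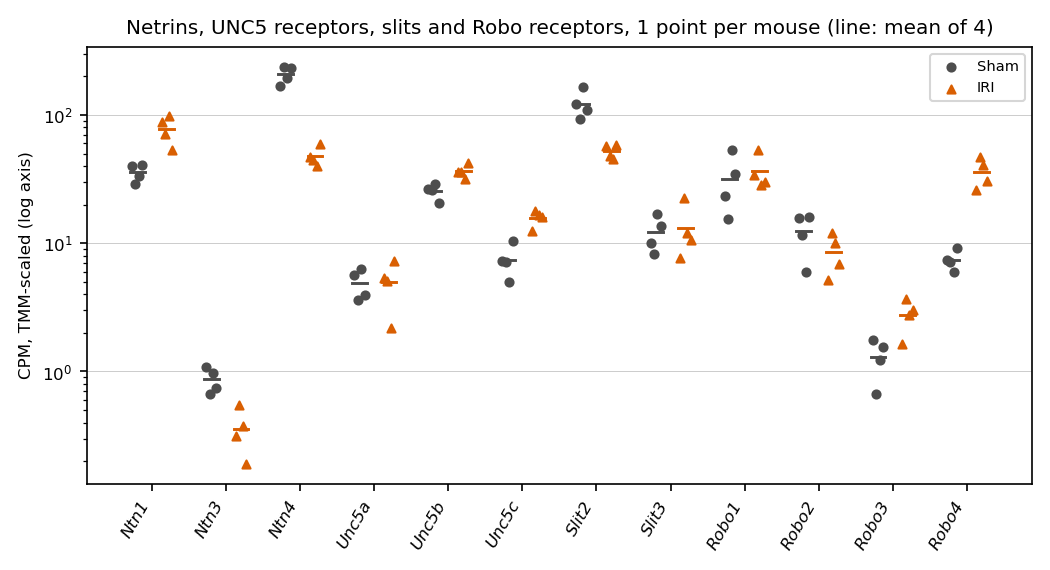
TMM-scaled CPM on a log axis of 12 netrins, UNC5 receptors, slits and Robo receptors, 1 point per mouse (circles sham, triangles IRI, n = 4 each; lines are group means). Ntn4 and Slit2 lie lower and Ntn1, Unc5c and Robo4 higher in every injured mouse, and Robo1, Robo2, Slit3 and Unc5a overlap.

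Across families, the 5 members with the most RNA per kilobase in sham were Plxnb2 (165 CPM per kb), Ntn4 (55.6), Efna4 (30.7), Sema4b (28.0) and Plxnb1 (25.7). After IRI they were Plxnb2 (104 CPM per kb), Epha2 (66.9), Sema4b (58.2), Efna5 (45.0) and Plxna1 (36.2). Ntn4, Efna4 and Plxnb1 were in the first list alone and Epha2, Efna5 and Plxna1 in the second alone. Among the first 5 in sham, the mean levels of Efna4, Sema4b and Plxnb1 lay close together.

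**Figure D5:**
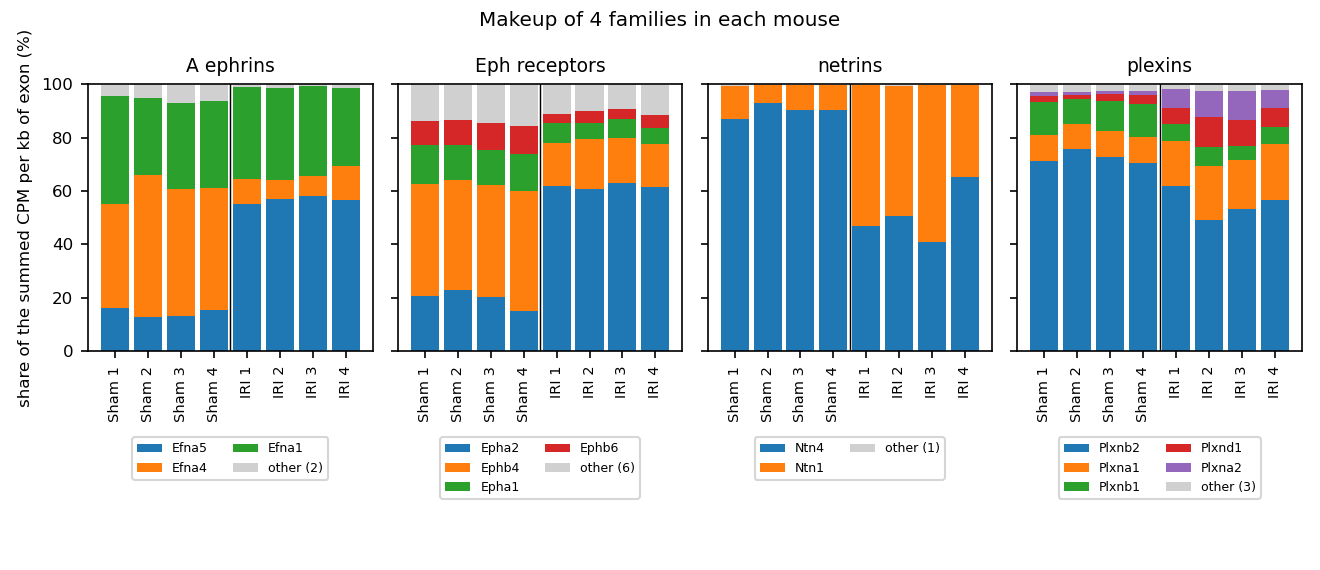
Share of each member in the summed CPM per kb of exon of its family (%, stacked bars to 100%), 1 bar per mouse, for A ephrins, Eph receptors, netrins and plexins; grey holds members that reached no 8% in any mouse. The mean share of Efna5 is 14.3% in sham and 56.8% after IRI, that of Epha2 19.7% and 61.8%, and that of Ntn4 90.3% and 51.0%.

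The injured mice differed among themselves, and many members shared the same order of mice. The summed endothelial markers ran 824, 682, 576 and 406 CPM in IRI 2, 3, 4 and 1, and the sums for fibroblasts and pericytes, podocytes and macrophages had that order too. Of the 24 higher members, 7 followed it (Nrp2, Plxnd1, Robo4, Sema6a, Sema6d, Sema7a and Unc5c), 29.2% against 13.0% of all genes called higher, and 0 of the 12 lower members did, against 3.56% of all genes called lower. So did 5 of the 23 members that were not called (21.7%), against 7.87% of all genes tested, so the order was not particular to the members that rose. The gene totals ran the other way, at 13518005, 17223554, 22625170 and 27496808 counts in IRI 2, 3, 4 and 1. The share of counts that named no gene had the endothelial order (52.3%, 51.2%, 47.4% and 43.3%). The part of depth or library makeup in this order was not tested. IRI 1 was the lowest injured mouse in 12 of the 24 higher members, against 37.5% of all genes called higher, and in 12 of the 23 not called. IRI 4, which had the highest sum of principal cell markers of the injured mice, 3704 CPM, was the highest in 8 of the 12 lower members, against 39.3% of all genes called lower. Among the higher members it was the highest in 8 of 24 (33.3%), against 30.8% of all genes called higher. Of members known from vessels, Plxnd1, Robo4, Nrp2 and Unc5b rose, Nrp1 and Efnb2 did not pass and Ephb4 fell, while 8 of 14 endothelial markers rose. Unc5b did not follow the endothelial order. The summed proximal tubule markers ran in another order, 21508, 20224, 13321 and 10673 CPM in IRI 3, 1, 2 and 4. Ntn1, which rose, and Sema4g, which was not called, had that order. The share of all genes with it was not counted. The part of other cells' RNA in these values was not tested.

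The families work through shared partners inside and at the surface of the cell, and 56 such genes were listed. Of the 52 tested, 18 were higher and 12 lower, and the median log2 fold change was 0.11. These shares, 34.6% and 23.1%, stand beside 25.1% and 24.6% of all genes. The plexin partners had 8 higher of 17 and 2 lower. Rnd1, a small GTPase that binds plexins from inside, had the largest rise (log2 fold change 3.57, edgeR adjusted p = 1.1e-05), from 1.52 to 2.33 CPM in sham to 16.2 to 36.3 CPM after IRI. Dpysl3, a collapsin response mediator (1.93), Fes, a tyrosine kinase (1.61), and Rras, a GTPase on which plexins act (1.54), rose too. L1cam, an adhesion molecule that partners Nrp1 in Sema3a signalling, fell from 309 to 431 CPM in sham to 64.4 to 120.2 CPM after IRI (log2 fold change -2.05, edgeR adjusted p = 2.3e-05). Farp2, an exchange factor of A plexins, fell by 0.61 on the log2 scale.

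Of the 18 ephrin partners 5 were higher and 5 lower, 27.8% each, which is near the background of all genes. Git1, an adaptor (log2 fold change 1.18), Adam10, the protease that sheds ephrins (0.87), and the kinase Abl2 (0.87) rose. Vav3 (-1.39), Kalrn (-1.16) and Ngef (-0.81), all guanine nucleotide exchange factors, and the lipid phosphatase Inppl1 (-1.08), which binds Epha2, fell. For Inppl1, 20.3% of exon bases overlap other genes. Of the 9 netrin partners tested, Mcam, an adhesion molecule of vessels, and Pitpna rose (log2 fold change 2.12 and 0.35) and Rgmb and Dock1 fell (-0.64 and -0.54). Dcc, the classical netrin receptor, was not tested for low counts. Of the 8 slit partners, Srgap1 (1.95), Vasp (1.62) and Sdc1 (1.41) rose, and Srgap3 (-1.31), Arhgap39 (-0.56) and Usp33 (-0.32) fell. Srgap1 and Srgap3, both GTPase-activating proteins bound by Robo receptors, thus moved in opposite directions.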

How the data were processed

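RNA bound to tagged ribosomes of HoxB7-Cre lineage cells was sequenced from 4 IRI and 4 sham mice. The authors depleted ribosomal RNA, aligned reads to mm10 with TopHat2 2.1.1, counted them per gene symbol with HTSeq and deposited raw counts, 1 file per mouse. Not given in the sources used here were which annotation was counted, in which mode and with or without the strand. Counts in the rows that name no gene were left out. They were 43.3% to 52.3% of all counts after IRI and 33.3% to 37.7% in sham, without overlap between the groups.

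From these counts, edgeR 4.0.16 in R 4.3.3 compared IRI with sham by its quasi-likelihood test, with TMM factors, filterByExpr (minimum count 10, minimum total 15; 14606 genes) and Benjamini-Hochberg adjustment over all genes tested at 0.01. Standard errors came from voom in limma 3.58.1, and DESeq2 1.42.0 was an alternative. The fit was tested on simulated data. Positions, exon lengths (union of exons) and overlaps came from a GRCm38 annotation, in which all 68 members were found. Alternatives were other scalings, filters, tools and thresholds, a replicate block, the series of animal numbers and each library left out. Members and lists were chosen with earlier results of these data known. Values in every mouse were given for the 10 members per direction with the largest change among those called without overlap, for the most abundant of each family and for their ligand or receptor partners; partner genes were named up to 4 per direction and family. The labels name replicates 1 to 4 per group. The p-values set the difference between groups against the spread between mice, which edgeR estimates for each gene with information from all genes tested.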

Additional observations from a re-analysis of the deposited data

Results flagged for a closer look

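In 4 of the 120 groups of 4 mice (60 members, IRI and sham) 1 mouse lay apart from the other 3 by Dixon's criterion, and chance sets about 1 in 20 groups apart. Nrp2 in IRI 1 was at 42.61 CPM, with the other injured mice at 76.78 to 81.74 CPM. Ephb4 in Sham 3 was at 135.7 CPM, with the other sham mice at 109.3 to 112.9 CPM, and Ephb6 in the same mouse was at 26.12 CPM, with the others at 19.81 to 20.76 CPM. Epha7 in IRI 4 was at 3.27 CPM, with the other injured mice at 2.82 to 2.88 CPM.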

How the results depend on the processing

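No member's call reversed under any of the 17 alternatives run for each, and 30 of the 36 called members passed in all of them. The exceptions were Ephb4, Ntn3, Plxna1, Plxnb2, Sema4b and Unc5b. Members called higher ranged from 21 (replicate block) to 26 (threshold of 0.05) and those called lower from 9 (replicate block) to 13, against 24 and 12; leaving out 1 library gave 22 to 24 and 10 to 13. The replicate block lowered all calls from 7262 to 5582, and mice with the same number did not deviate together (correlations -0.07, -0.53, -0.36 and -0.37), so the numbers do not pair them. Efna2, Efnb3, Ntn3 and Sema4f reached the count limit through 1 group alone, and 8 members stayed below it. The part of depth in this was not tested.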
